A study of Mus musculus with 2 samples.

Results

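The cells described here were 400 stromal cells of mouse gonadal white adipose tissue (gWAT), chosen by their RNA for Cfd, Car3, Itm2a and Rgcc and proposed as late preadipocytes. Each cell received a score, the mean over these 4 genes of the natural log of 1 plus its UMIs (counted RNA molecules) per 10000, and the 400 highest of 7010 cells became the members. The other 6610 cells are called the rest. The 7010 cells had passed a gate that kept cells with more than 1000 and fewer than 7000 detected genes, under 8% mitochondrial UMIs, fewer than 5 UMIs of the mesothelial genes Msln, Upk3b, Krt19, Lrrn4 and Upk1b, under 1% immunoglobulin UMIs, fewer than 3 UMIs of Calca and Ncam1 and fewer than 10 of Pi16 and Dpp4. The whole series held 17404 barcodes, of which 5566 were Tom+ and 11838 Tom-.

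Both libraries came from 18-month-old male mice carrying p16-CreERT2 and the Rosa26-LSL-tdTomato reporter, all given tamoxifen. In these mice Cre driven from the p16 (Cdkn2a) gene switches on tdTomato in cells with high p16 at that time. The CD31- CD45- stromal vascular fraction, which leaves out most endothelial and blood cells, was sorted into tdTomato-positive (Tom+) and tdTomato-negative (Tom-) cells. Each sort gave 1 library, and the number of mice behind it was not given in the sources used here. With 1 library per sort there was no test between sorts, a sort and its preparation cannot be told apart, and the 95% intervals given here cover counting error only. Of the gate, 2819 cells were Tom+ and 4191 were Tom-. The members comprised 110 Tom+ and 290 Tom- cells with 1476571 and 3253866 UMIs in all. Their median depth was 13793 UMIs per cell in Tom+ and 10910.5 in Tom-, close to 13948 and 11042 in the rest.

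White adipocytes arise from fibroblast-like progenitors, the adipose progenitor cells (APCs), that make collagen and decorin (Dcn) and carry the PDGF receptor Pdgfra. Commitment switches on Pparg and Cebpa, the transcription factors of adipogenesis, and then genes of lipid uptake and storage such as Fabp4, Cd36, Lpl and Plin2. Adiponectin (Adipoq) and the droplet-coat gene Plin1 mark the adipocyte itself. Cfd encodes adipsin, a complement protease that adipocytes secrete, and Car3 encodes carbonic anhydrase 3, an abundant adipocyte enzyme. Itm2a encodes a membrane protein also made by T cells, and Rgcc a regulator of the cell cycle also made by endothelial cells.

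On the GRCm38 (mm10) genome the 4 genes lie apart, each protein-coding in the GENCODE annotation. Cfd spans 79890853 to 79892655 of chromosome 10, Car3 14863512 to 14872523 of chromosome 3, Itm2a 107397099 to 107403376 of chromosome X and Rgcc 79288756 to 79301645 of chromosome 14.

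The data went against the name for most members. Rgcc put most of them in the set, Itm2a most of the others, and the 2 adipocyte genes of the score were rarely seen. A UMI of Rgcc was found in 315 members and of Itm2a in 171, but of Car3 in only 35 and of Cfd in only 10. Of the members, 69.2% carried UMIs of 1 of the 4 genes, 28.7% of 2, 2% of 3 and 0 of all 4. The set is therefore called here the Rgcc and Itm2a cells, or the members, and no cell type name is given to it. These values chose the members and are a description.

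The score had no step where the members ended. It ran from 3.49 to 0.330, with a median of 0.434, and the highest cell outside had 0.330 as well. Within 0.05 of the limit lay 101 members and 136 cells of the rest. Only 10 members scored over 1, and 80.1% of the rest scored 0. The 40 members just inside the limit and the 40 cells just outside it were alike in their genes, with Rgcc in 30 and 30 cells, Itm2a in 13 and 14, Car3 in 2 and 5, and Cfd in 0 and 0. The 4 genes together gave a median of 5 UMIs per member, and 119 members had 3 or fewer.

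**Figure D1:**
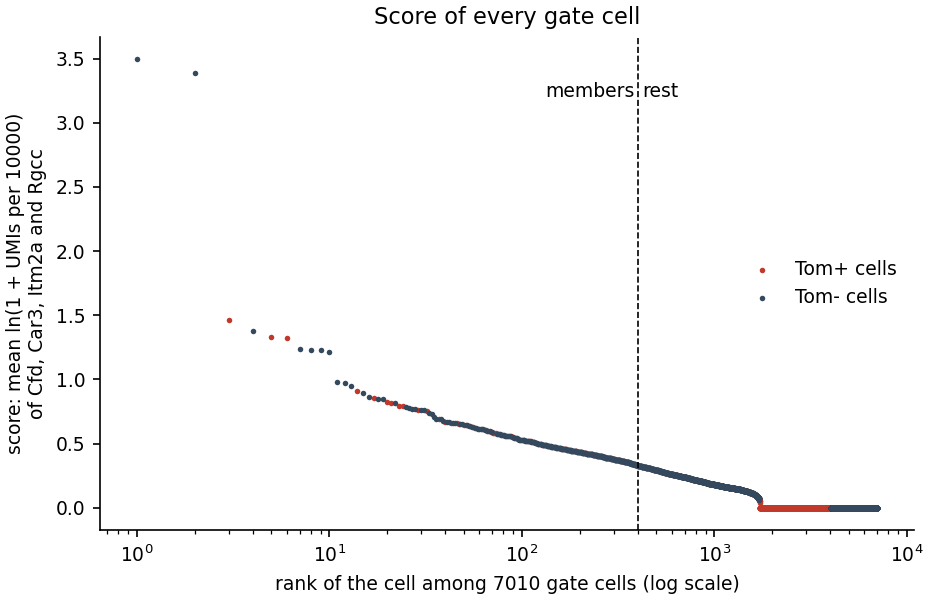
Score of each of the 7010 gate cells (natural log scale of UMIs per 10000, mean of 4 genes) against its rank on a log axis, coloured by library, with cells of equal score in file order. The scores fall smoothly through the dashed limit at 400 cells, and 10 cells stand above 1.

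The members fell into 4 kinds by the genes they carried. The largest was the 195 cells with Rgcc but no Itm2a, followed by 90 with both and 77 with Itm2a but no Rgcc, none of these with Car3 or Cfd. The remaining 38 cells had a UMI of Car3 or Cfd. The kinds were spread unevenly over the sorts. Rgcc without Itm2a held 56.6% of the Tom- members (50.6 to 62.3%) and 28.2% of the Tom+ members (20.02 to 37.6%). Itm2a without Rgcc held 40.9% of the Tom+ members (31.6 to 50.7%) and 11.0% of the Tom- members (7.67 to 15.2%). The genes that define the kinds also chose the members, and each sort was 1 library, so these shares describe the make-up of the members and test no difference between sorts. For both genes together the shares were 24.5% and 21.7%, and for Car3 or Cfd 6.36% and 10.7%.

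**Figure D2:**
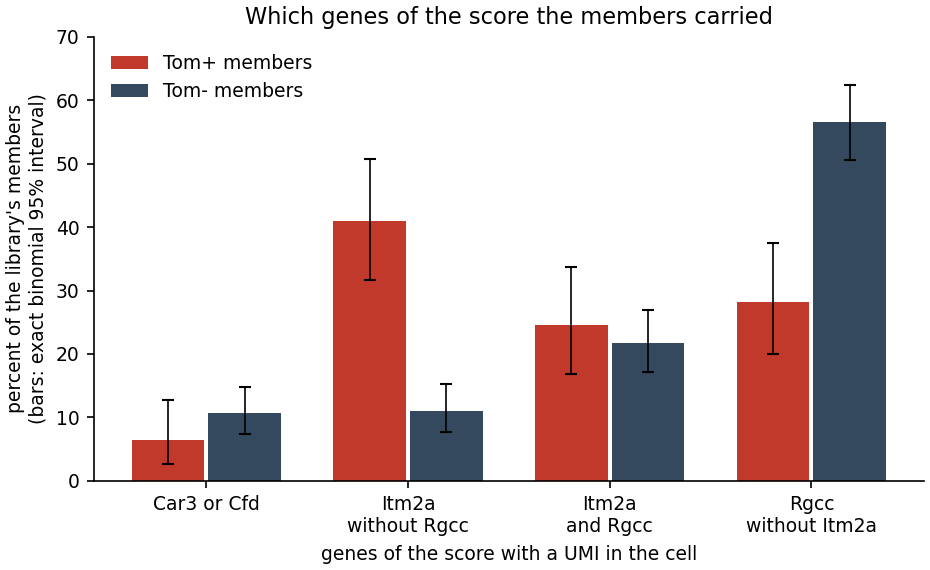
Share of the 110 Tom+ and 290 Tom- members (y axis, percent) in each of the 4 kinds (x axis), with exact binomial 95% intervals as bars. Itm2a without Rgcc leads in Tom+ at 40.9% and Rgcc without Itm2a leads in Tom- at 56.6%.

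Rgcc was also the more widespread in Tom- over the whole gate, which the rule did not select by sort. In CPM, the UMIs of a gene per 1000000 UMIs of a pool of cells, it stood at 16.7 (15.4 to 17.96) for Tom+ cells and at 51.4 (49.4 to 53.4) for Tom- cells, a log2 ratio of Tom+ over Tom- of -1.62 (-1.75 to -1.50). After each cell was thinned to 6959 UMIs, leaving out shallower cells, a Rgcc UMI was found in 6.95% of Tom+ and 17.5% of Tom- gate cells (10.9% and 23.4% unthinned). Itm2a went the other way, with 16.2 CPM for Tom+ and 11.1 CPM for Tom- cells, a log2 ratio of 0.54 (0.37 to 0.71). Its thinned shares were closer, 5.57% (4.72 to 6.52%) and 4.56% (3.91 to 5.28%), and their intervals overlapped. The members accordingly made up 3.90% of the Tom+ gate (3.22 to 4.68%) and 6.92% of the Tom- gate (6.17 to 7.73%). Tom+ cells were 27.5% of the members (23.2 to 32.2%) against 41.0% of the rest (39.8 to 42.2%). That share turned on the gene used. It was 18.8% when Itm2a was left out of the score and 39.8% when Rgcc was left out.

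The correlations among the 4 genes ranged from near 0 to 0.57. Across the cells of the gate, which share a library and its depth, Cfd and Car3 had a Pearson correlation of 0.23 over 2819 Tom+ cells and 0.57 over 4191 Tom- cells. Rgcc had 0.17 and 0.16 with Cfd and 0.15 and 0.16 with Car3, and it was found in 43.5% of the 62 Tom- cells with Car3 and 23.1% of the other Tom- cells. Itm2a had -0.01 with Cfd and with Car3 in both libraries, and 0.08 and 0.04 with Rgcc. In mesothelial-marker cells of the same libraries (at least 5 UMIs of the 5 mesothelial genes, median 17891 UMIs in Tom+ and 14678 in Tom-), the thinned share with Rgcc was 1.60% and 3.08%, below the 6.95% and 17.5% of the whole gate. For Itm2a it was 11.2% and 9.57%, above the gate's 5.57% and 4.56%. For Car3 it was 1.60% and 2.64%, above the gate's 0.653% and 0.971%, so the low shares of Car3 and Itm2a in the gate are not read as a level particular to APCs. Single cells of the rest held up to 8 Car3 and 7 Itm2a UMIs, and the part of free RNA in these shares was not tested.

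Car3 and Cfd were abundant in a handful of cells, and these were not of 1 kind. Of the 35 members with Car3, 16 held 1 Car3 UMI and 3 held 2 to 4. The other 16 held 9 to 292 Car3 UMIs each, and together 1155 of the members' 1181. No cell of the rest held more than 8. Of these 16 cells, 2 were Tom+ and 14 Tom-.

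Of the 16, 5 (2 Tom+ and 3 Tom-) also carried adipocyte genes (at least 3 UMIs of Adipoq, Plin1 and Cidec, the last a lipid droplet fusion protein). The member of the highest score, a Tom- cell of 18263 UMIs, held 273 Cfd, 292 Car3, 47 Adipoq, 15 Plin1, 110 Cidec and 690 Fabp4 UMIs, with 8 of Dcn and 0 of Pdgfra. The next, a Tom- cell of 15726 UMIs, held 143 Cfd, 219 Car3, 36 Adipoq and 283 Fabp4 UMIs with 8 of Dcn. These 2 cells gave 94.8% of the members' Cfd. The 2 Tom+ cells held 147 and 176 Car3 but 0 and 1 Cfd UMIs, with 46 and 83 of Plin1, 282 and 664 of Lpl and 208 and 353 of G0s2, an inhibitor of lipolysis. Both had 83 Dcn UMIs, and at 31963 and 58762 UMIs they were deeper than 25021 UMIs, the 95th percentile of the Tom+ gate. The fifth, a Tom- cell, held 49 Car3, 11 Cfd and 6 Adipoq beside 205 Dcn UMIs. Adipoq was found in 4 members and in 2 cells of the rest. No doublet caller was run, and whether any of these barcodes held 2 cells was not tested.

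The other 11 of the 16, all Tom-, were the cells that came nearest to the name. They held 9 to 53 Car3 UMIs, 0 of Adipoq and of Cidec, and 183 to 459 of Dcn, so they kept the progenitor's matrix gene. Fabp4 was present in 11 of 11 with a median of 27.1 UMIs per 10000 (0.580 to 65.0), against 83.3% of the rest with a median of 5.99. Lpl was present in 11 of 11 with 28.1 (6.28 to 94.6), against 92.9% of the rest with 6.32. Plin2, the droplet-coat gene of early lipid storage, was in 11 of 11 with 9.96 (1.26 to 21.2), against a median of 0.802 in the rest. Pparg was found in 8 and Cebpa in 7 of them, against 21.7% and 33.1% of the rest. Cd36 was seen in only 4 of the 11, with a median of 0, and Itm2a in 1. Pdgfra was found in 10. They also held much Trf, the iron carrier transferrin, at a median of 68.6 UMIs per 10000 (13.3 to 214), and Igf1, insulin-like growth factor 1, at 14.3 (7.18 to 25.1). Cfd was seen in 1 of the 11, with 1 UMI. The 11 cells were picked out after their values were seen.

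**Figure D3:**
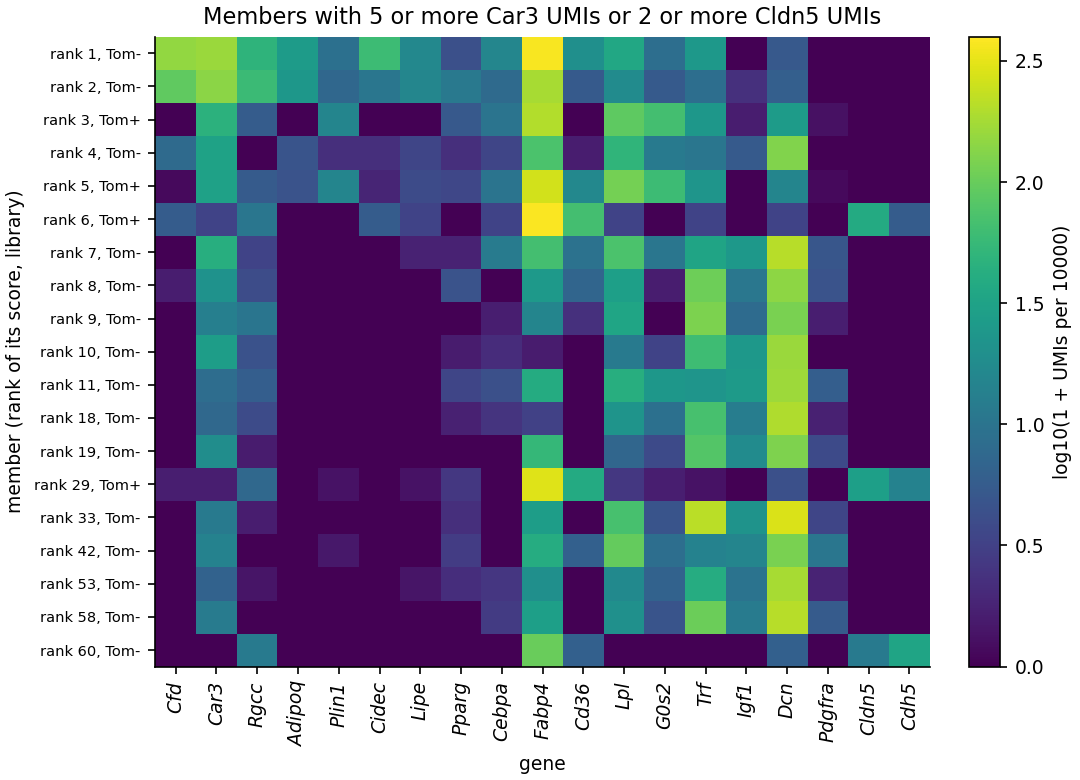
UMIs per 10000 of 19 genes (columns, colour on the scale log10 of 1 plus the value) in the 16 members with at least 5 Car3 UMIs and the 3 with at least 2 Cldn5 UMIs (rows, by rank of score and library). Ranks 1 to 5 carry adipocyte genes, ranks 6, 29 and 60 carry the endothelial genes Cldn5 and Cdh5, and the other 11 rows, all Tom-, carry Car3 with Dcn, Trf and Igf1.

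Some members carried markers of cells that the sort was meant to leave out. At least 3 UMIs of the endothelial genes Pecam1, Cdh5 and Cldn5 were found in 5 members, 1.25% (0.407 to 2.89%), and in 0.272% of the rest. A Tom+ member of 30280 UMIs held 85 Cldn5, 40 Cdh5, 24 Pecam1 and 114 Cd36 UMIs, with 53 of the pericyte gene Rgs5 and 10 of Dcn. A Tom+ member of 4228 UMIs held 16 Cldn5 and 28 Cd36 UMIs, and a Tom- member of 1880 UMIs held 6 Cdh5 UMIs. At least 3 UMIs of the immune genes Ptprc, Cd3e, Tyrobp and Fcer1g were found in 14 members, 3.50% (1.93 to 5.80%), and in 1.47% of the rest (1.19 to 1.79%). Dcn was below 20 UMIs per 10000 in 15 members, and each of the 15 carried the endothelial, immune or Adipoq markers.

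Over whole marker lists the endothelial sum was higher in the Tom+ members alone, and the immune sum was lower in the members of both libraries. The 11 endothelial markers summed to 249.9 CPM in the Tom+ members against 68.9 CPM in the Tom+ rest, and to 43.3 and 60.7 CPM in Tom-, with Tek the most abundant and none at 0. The share of cells with more than 2 UMIs of that list was 3% in the members and 8.20% in the rest, and the Tom+ member of 30280 UMIs alone gave 85 Cldn5, 40 Cdh5 and 24 Pecam1 UMIs of the Tom+ sum. The 10 immune markers, led by Ptprc, summed to 65.7 CPM against 303.4 CPM in Tom+ and to 40.9 against 129.6 CPM in Tom-, but the share of cells with more than 2 UMIs of the list was 4.5% in the members and 3.07% in the rest. The 10 mural markers, led by Myh11, summed to 172.7 and 99.5 CPM in Tom+ and to 79.6 and 77.6 CPM in Tom-. The epithelial and skeletal muscle lists each stayed below 20 CPM in the members, with Epcam, Cdh1 and Cldn4 and with Ckm, Acta1 and Atp2a1 at 0. The erythroid genes were at 0, in pools where 3 UMIs would be 2.03 CPM in Tom+ and 0.922 CPM in Tom-.

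Most members carried the matrix and receptor genes of APCs, and Dcn, Pdgfra and Ly6a had medians under those of the rest. Dcn had a median over cells of 182 UMIs per 10000 in the Tom+ members and 210 in the Tom- members, against 203 and 229 in the rest. Pdgfra had medians of 2.39 and 2.17 against 3.39 and 2.56. Ly6a, the surface antigen Sca-1, had medians of 8.89 and 7.36 against 10.8 and 10.5. Cd34, another APC marker, was higher in the Tom+ members (2.49 against 2.35) and lower in the Tom- members (1.16 against 1.92). Of 8 pan-progenitor genes 1 was higher and 4 lower in both libraries.

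The late preadipocyte markers did not set the members apart in both libraries. The markers were Pparg, Cebpa, Fabp4, Cd36, Lpl and Plin2, and their median log2 ratio of members over rest was 0.95 in Tom+ and 0.65 in Tom-. In Tom+ this rested on few cells, since without the 38 members with Car3 or Cfd it was -0.57 and without the 5 highest members -0.20. In Tom- it was 0.28 and 0.51 in the same order.

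Pparg, the master factor of adipogenesis, had a higher level in the members of both libraries but a higher thinned share of cells in Tom- alone. Its level was 37.9 CPM in the Tom+ members and 21.7 CPM in the Tom+ rest, but its thinned share of cells was 5.62% (1.85 to 12.6%) against 13.6%, so no direction was read in Tom+. In Tom- the level was 52.9 CPM against 23.6 CPM and the thinned share 24.7% (19.4 to 30.6%) against 14.1% (13.0 to 15.4%), and both were higher in the members. Without the members with Car3 or Cfd the Tom- level was 39.1 CPM and the Tom+ level 16.8 CPM.

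Cebpa, the factor that acts with Pparg, was at 88.0 CPM in the Tom+ members and 41.2 CPM in the Tom+ rest. It was at 78.1 and 46.4 CPM in Tom-. Without the members with Car3 or Cfd it was at 34.4 CPM in Tom+, below the rest, and at 56.6 CPM in Tom-. Its thinned shares, 16.9% against 20.6% and 29.6% against 24.2%, had overlapping intervals in each library. Fabp4, the fatty acid carrier of maturing adipocytes, was at 3000.2 CPM against 1267 CPM in Tom+ and at 1601 against 1089 CPM in Tom-. Without the members with Car3 or Cfd it was at 903.7 CPM in Tom+, below the rest, and at 1124 CPM in Tom-. The thinned share of cells with Fabp4 was 83.1% against 85.9% in Tom+ and 87.2% (82.4 to 91.2%) against 76.8% (75.3 to 78.2%) in Tom-. Lpl, the lipase that frees fatty acids for uptake, was at 1222 against 995 CPM in Tom+ and at 1329 against 995 CPM in Tom-. Without the members with Car3 or Cfd Lpl was at 631 CPM in Tom+, below the rest, and at 1055 CPM in Tom-. Its median over cells was lower in all members of both libraries. In UMIs per 10000 it was 3.56 against 5.83 in Tom+ and 6.23 against 6.66 in Tom-.

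Cd36, the fatty acid translocase, ranked first by the smaller of the library ratios, and most of its UMIs lay in a few cells. Its log2 ratio was 2.08 (1.88 to 2.28) in Tom+ and 2.23 (1.95 to 2.50) in Tom-, yet 3 cells gave 95.9% of the 243 UMIs of the Tom+ members and 3 cells gave 65.5% of the 148 of the Tom- members. Of the 3 Tom+ cells, 2 carried the endothelial genes (114 and 28 Cd36 UMIs) and 1 the adipocyte genes (91). The thinned share of cells with Cd36 was 6.74% in the Tom+ members and 6.76% in the Tom+ rest. Without the members with Car3 or Cfd the log2 ratio in Tom+ was -3.35.

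Igf1, Trf, Penk, Agt and Mylk were higher in the members of both libraries, also without the members with Car3 or Cfd. Of 9833 genes averaging 5 CPM or more over the 4 pools, leaving out those of the score and the gate, 66 (0.671%) were at least 2-fold higher in the members of both libraries and 42 (0.427%) at least 2-fold lower. These comparisons use the contrast that chose the members, so they are descriptions. The genes named here averaged 50 CPM or more, and the 15 highest and 10 lowest were taken by the smaller of the library ratios.

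Igf1, a growth factor of adipose stroma, was found in most members of both libraries. Its level was 968 CPM (918 to 1019) in the Tom+ members against 504 CPM in the Tom+ rest, and 1415 CPM (1375 to 1457) in the Tom- members against 683 CPM in the Tom- rest. The thinned share of cells with Igf1 was 84.3% (75.02 to 91.1%) against 60.7% in Tom+ and 92.2% (88.1 to 95.2%) against 70.7% in Tom-. The 5 highest cells held 21.2% of the Igf1 UMIs of the Tom+ members and 7.97% of those of the Tom- members. In Tom+, Igf1 was at 968 CPM with Itm2a alone, 1267 CPM with both genes and 932 CPM with Rgcc alone, against 504 CPM in the rest. In Tom- these levels were 1821, 1807 and 1298 CPM against 683 CPM. The members with Car3 or Cfd had 385 CPM in Tom+, below the rest, and 990 CPM in Tom-.

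Trf was at 1848 CPM against 802 CPM in Tom+ and at 2743 against 1194 CPM in Tom-, log2 ratios of 1.20 (1.15 to 1.26) and 1.20 (1.17 to 1.23). Its thinned shares were 76.4% (66.2 to 84.8%) against 62.1% and 82.7% (77.4 to 87.3%) against 69.3%. In the mesothelial-marker cells Trf was found in 98.4% of thinned cells of each library. Penk, which encodes the opioid precursor proenkephalin, was at 743.6 against 356 CPM in Tom+ and at 1185 against 718 CPM in Tom-. Agt, the precursor of angiotensin, was at 443 against 265 CPM in Tom+ and at 501 against 247 CPM in Tom-. The thinned share of cells with Agt was 77.5% against 55.2% in Tom+ and 79.0% against 50.5% in Tom-.

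Mylk, the kinase of myosin light chain, was at 232 against 92.1 CPM in Tom+ and at 217 against 98.6 CPM in Tom-. Its thinned share of cells was 62.9% (52.0 to 72.9%) against 31.0% in Tom+ and 51.0% (44.6 to 57.5%) against 32.5% in Tom-, and it was 2.40% and 7.64% in mesothelial-marker cells. By kind, Mylk in Tom- was at 99.99 CPM (66.4 to 145) with Itm2a alone, level with the rest, 205 CPM with both genes and 221 CPM with Rgcc alone. In Tom+ these levels were 120, 326 and 199 CPM. The RIKEN transcript 6030408B16Rik was at 95.5 against 39.0 CPM in Tom+ and at 165 against 80.7 CPM in Tom-. Dbi, the acyl-CoA binding protein, had log2 ratios of 0.80 and 0.78. Pdlim3, an actin-associated protein, had 1.75 and 0.79, and it went with Itm2a, at 188 CPM in cells with Itm2a alone and 41.3 CPM in cells with Rgcc alone against 33.4 CPM in the rest. Cpxm2, a secreted carboxypeptidase-like protein, had 1.46 and 0.70, and the mitochondrial ribosome gene Mrps6 had 1.57 and 0.77.

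For G0s2 and Cav1 in Tom+ and for Srgn in both libraries a few cells held much of the RNA. G0s2 was at 476 against 161 CPM in Tom+, with 353 of the 703 UMIs of the Tom+ members in 1 cell, and its Tom+ level was 106 CPM without the members with Car3 or Cfd. In Tom- it was at 335 against 200.1 CPM, and at 287 CPM without them. Cav1, which forms caveolae in adipocytes and endothelium, was at 186 against 39.9 CPM in Tom+ and at 62.6 CPM without them, and in Tom- at 97.7 against 59.0 CPM and at 81.4 CPM without them. Srgn, a proteoglycan of blood cells, was at 54.9 against 34.2 CPM in Tom+, with 67.9% of its 81 UMIs in 5 cells, and at 80.8 against 48.8 CPM in Tom-. There, 1 cell of 29755 UMIs that also held 13 UMIs of Tyrobp gave 55.5% of its UMIs. Without the members with endothelial, immune or Adipoq markers the log2 ratios of Srgn were -1.34 and -0.60, the other direction.

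The lower genes included several that mark interstitial progenitors and matrix. Ackr3, a scavenger receptor for Cxcl12, was at 182 against 407 CPM in Tom+ and at 200.1 against 455 CPM in Tom-. The thinned share of cells with Ackr3 was 34.8% (25.04 to 45.7%) against 62.9% and 35.8% (29.8 to 42.2%) against 60.6%. Anxa3, an annexin of interstitial progenitors, was at 128 against 268 CPM and at 107 against 266 CPM, with thinned shares of 39.3% against 62.6% and 37.4% against 59.1%. Fbn1, the microfibril protein fibrillin-1, was at 433 against 848 CPM and at 311 against 580 CPM. Smpd3, a sphingomyelinase, had log2 ratios of -1.17 and -1.22, and Hmcn2, a matrix protein of the hemicentin family, had -0.83 and -0.85.

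The other lower genes were Basp1 (-1.70 in Tom+ and -0.88 in Tom-), Lsp1 (-0.92 and -0.87), Agap1 (-0.86 and -0.93), the matrix metalloproteinase Mmp3 (-1.14 and -1.46) and the macrophage lysozyme Lyz2 (-3.85 and -2.55). Lyz2 rested on few cells of the rest, where 28 of 2709 Tom+ cells held 96.6% of its UMIs. Its thinned share of cells was 4.49% in the Tom+ members and 4.73% in the Tom+ rest.

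**Figure D4:**
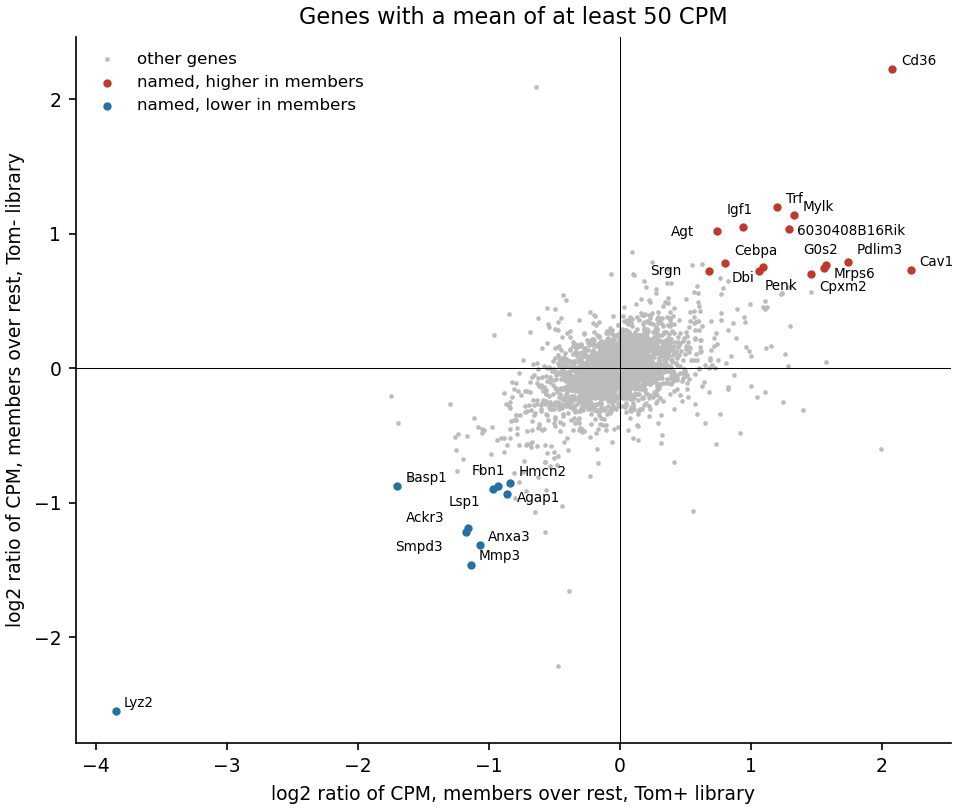
Log2 ratio of CPM in members over rest for Tom+ (x axis) and Tom- (y axis) for each gene averaging 50 CPM or more, without the genes of the score and the gate. Red points are the 15 highest and blue points the 10 lowest named genes, with Cd36 at 2.08 and 2.23 and Lyz2 at -3.85 and -2.55 farthest out.

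**Figure D5:**
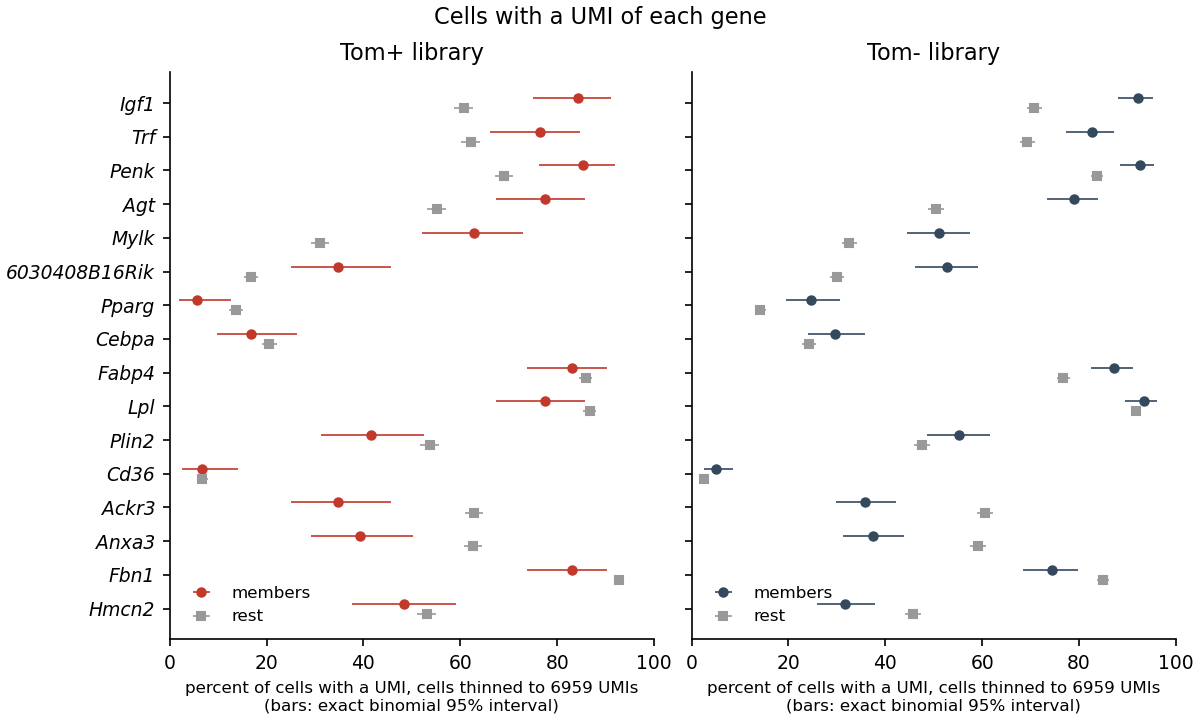
Percent of cells with a UMI of each gene after thinning to 6959 UMIs (x axis) in members and rest of each library, with exact binomial 95% intervals. Igf1, Agt and Mylk lie to the right of the rest and Ackr3 and Anxa3 to the left in both libraries, while Pparg lies to the left in Tom+ and to the right in Tom-.

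The genes most like the score over the gate cells were adipocyte genes, and they stood on the same few cells. By the lower of the library correlations these were Plin1 (0.26), Aqp7 (0.26), Cidec (0.25), Tmem182 (0.23), Timp4 (0.21), Adipoq (0.20), Igf1 (0.19) and Ffar4 (0.19). Without the 38 members with Car3 or Cfd, Plin1 had 0.03 in each library, and the 8 most alike were Igf1 (0.22), Sfrp1 (0.20), Mylk (0.19), Penk (0.17), 6030408B16Rik (0.17), Agt (0.16), C7 (0.16) and Trf (0.15). Sfrp1 is a secreted Wnt inhibitor and C7 a complement component. Cells share their library and depth, so these values are a description, and correlations of this size in sparse counts are weak.

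By gene list, the members had less of the matrix and interstitial programmes, and their mature adipocyte signal came largely from the Car3 or Cfd cells. In Tom- the late preadipocyte markers kept a median log2 ratio of 0.28 without those cells. Over all tested genes 27.2% were higher in the members of both libraries and 32.2% lower in both, with median log2 ratios of -0.04 in Tom+ and -0.0036 in Tom-, which is the background for these counts. Of 9 measured interstitial progenitor genes 0 were higher and 8 lower in both libraries, with medians of -0.60 in Tom+ and -0.90 in Tom-. The gate had already limited Pi16 and Dpp4 in members and rest alike. Of 30 collagen and matrix genes 2 were higher and 25 lower in both, with medians of -0.45 and -0.25. Of 12 basement membrane genes 1 was higher and 9 lower in both, and of 14 interferon-stimulated genes 0 were higher and 9 lower.

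Among 18 measured mature adipocyte genes, of 27 in the list, 13 were higher and 0 lower in both libraries, 9 of them at least 2-fold. Their medians were 1.04 and 1.61, and 0.04 and 0.07 without the members with Car3 or Cfd. A gene could reach the 5 CPM limit through the members alone, so this count was tilted towards higher genes and is a description. Adipoq, at 14.2 and 27.4 CPM in the members, was at 0 and 0.044 CPM in the rest. Of 18 adipogenic factors 9 were higher and 3 lower in both, with medians of 0.12 and 0.11. Of 19 lipid uptake and droplet genes 10 were higher and 2 lower, with medians of 0.28 and 0.49, and of 13 committed preadipocyte genes 7 were higher and 4 lower, with medians of 0.18 and 0.30. In Tom+ the last 2 medians were -0.27 and -0.37 without the members with Car3 or Cfd. Dlk1, the preadipocyte factor, was at 0 in the members and below 1 CPM in the rest of each library (0.584 and 0.666 CPM).

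Genes of stress and respiration were slightly higher. Of 24 immediate early and stress genes 14 were higher and 2 lower in both libraries, with medians of 0.15 and 0.11. Of 13 mitochondrially encoded genes 11 were higher and 0 lower, and the members' median mitochondrial share was 4.61% in Tom+ and 3.89% in Tom- against 4.21% and 3.803% in the rest. The part of cell handling or RNA quality in these values was not tested. Of 12 insulin and IGF axis genes 8 were higher and 3 lower, of 12 senescence genes 6 and 1, and of 19 secretory genes of senescent cells 3 and 6. Of 28 TGF-beta pathway genes 4 were higher and 11 lower, and of 85 nuclear respiratory chain genes 47 were higher and 5 lower. Ribosomal protein genes were split between the libraries, with 83 of 91 higher in the Tom+ members and 21 of 91 in the Tom- members, against 45.7% and 49.4% of all tested genes.

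The reporter followed the sort in the members as a whole, with too few UMIs to tell in those with Car3 or Cfd. In the members tdTomato was at 426 CPM in Tom+ (629 UMIs in 34 of 110 cells) and 13.8 CPM in Tom- (45 UMIs in 34 of 290 cells), a log2 ratio of 4.94 (4.51 to 5.42). In the rest it was at 143 and 13.4 CPM, a log2 ratio of 3.42. The members' ratio was 3.51 when Rgcc was left out of the score, and the kinds differed in Tom+, with 1150 CPM in the cells with Rgcc alone (421 UMIs), 369.8 CPM in those with both genes and 119.7 CPM in those with Itm2a alone. In the members with Car3 or Cfd it was at 18.03 CPM in Tom+ (3 UMIs) and 8.61 CPM in Tom- (4 UMIs), a log2 ratio of 1.07 (-1.71 to 3.63), and both deep Tom+ cells with adipocyte genes held 0 tdTomato UMIs. In Tom+, 5 members held 53.4% of the tdTomato UMIs, and the thinned share of cells with tdTomato was 21.3% in the Tom+ members against 16.2% in the Tom+ rest. Cdkn2a, which encodes p16, was near the floor of detection, with 5 UMIs in the Tom+ and 9 in the Tom- members (3.39 and 2.77 CPM). Cdkn1a, the p53 target p21, was at 304 CPM in the Tom+ and 259 CPM in the Tom- members, and at 277 and 286 CPM in the rest.

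Between the sorts, Ccl11, Cxcl12, Hsd11b1 and Vwa1 were among the 10 lowest genes of the Tom+ members, and tdTomato, Fndc1, Col14a1 and Sulf2 among the 10 highest. Of 9863 genes averaging 5 CPM or more in the members, 451 (4.57%) were at least 2-fold higher in Tom+ and 189 (1.92%) at least 2-fold lower. In the rest, with many more cells, the same genes gave 74 and 113. The counting interval excluded equal levels for 385 and 150 of those in the members. The kinds of member differed between the sorts, so each ratio is given beside the same ratio in the rest. The genes named, the 10 highest and 10 lowest ratios, averaged 100 CPM or more in the members.

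Ccl11, the eosinophil chemokine eotaxin, was at 404 CPM in the Tom+ members and 1454 CPM in the Tom- members, a log2 ratio of -1.85 (-1.97 to -1.73) against -0.82 in the rest. Its median over cells was 0.687 UMIs per 10000 in the Tom+ members and 6.49 in the Tom- members, against 6.13 and 10.1 in the rest. The ratio was negative in each of the 4 kinds of member, at -0.85 in the cells with Rgcc alone, -1.14 in those with Itm2a alone and -2.37 in those with both. Cxcl12, the stromal chemokine that binds Ackr3, was at 503 and 1113 CPM, a log2 ratio of -1.14 against -0.33 in the rest. Each of the 4 kinds had a weaker Cxcl12 ratio than the members together. It was -0.85 with Car3 or Cfd, -0.85 with Itm2a alone, -0.97 with both genes and -0.71 with Rgcc alone. Ccl7, a monocyte chemokine, was at 610 and 1338 CPM, -1.13 against -0.93, but it depended on the kind of member. It was -2.84 in the cells with Itm2a alone, -1.18 in those with both genes and -0.07 (-0.21 to 0.06) in those with Rgcc alone.

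Hsd11b1, the enzyme that regenerates active glucocorticoid, was at 91.4 and 288 CPM, a log2 ratio of -1.65 against -1.24 in the rest. By kind Hsd11b1 was -3.76 in the cells with both genes, -1.70 in those with Itm2a alone, -1.12 in those with Rgcc alone and -0.05 (-0.62 to 0.48) in those with Car3 or Cfd. Vwa1, a matrix protein, had -2.02 against -1.35, and the pentraxin Ptx3 had -1.08 against -0.81, with 0.37 (-0.14 to 0.90) in the cells with Itm2a alone. Alkal2, a ligand of the ALK receptor, had -1.23 against -1.17, with -0.29 (-0.81 to 0.20) in the cells with Rgcc alone, and Spry1, an inhibitor of growth factor signalling, had -0.99 against -0.27. Cxcl2 had -2.44 against -1.57. Cxcl13, a B cell chemokine, had the lowest ratio, -4.03 against -1.30 in the rest, but 3 Tom- cells with 668, 273 and 217 UMIs held 92.0% of the 1259 UMIs of the Tom- members. Without these 3 cells the Tom- level was 31.7 CPM in place of 387 CPM. The Tom+ members, not trimmed, were at 23.7 CPM, with 27 of their 35 UMIs in 1 cell, so the trimmed level is not compared with theirs.

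On the higher side, Fabp5, a fatty acid carrier, had a log2 ratio of 2.91 against 0.32 in the rest, and 1 Tom+ cell held 550 of the 642 UMIs of the Tom+ members. Without that cell the Tom+ level was 64.9 CPM in place of 434.8 CPM, against 57.8 CPM in the Tom- members. Cd36 had 1.85 against 1.999 in the rest, and -2.59 without the members with Car3 or Cfd. The latter rested on few cells. Among members with Rgcc alone, 5 of 164 Tom- cells held 60 Cd36 UMIs and 2 of 31 Tom+ cells held 3. A single cell held 35.1% of the 148 Cd36 UMIs of all Tom- members, so no direction was read from the -2.59. Fndc1, a fibronectin-domain protein, had 1.87 against 1.22, Col14a1, a collagen of fibril surfaces, 1.17 against 0.58, and Sulf2, an enzyme that edits heparan sulfate, 1.14 against 0.75. By kind, Fndc1 was 0.71 (0.12 to 1.28) in the cells with Rgcc alone. In those with Car3 or Cfd it had 0 UMIs in Tom+ and 10 in Tom-. Sulf2 was 0.42 (-0.10 to 0.92) in the cells with Rgcc alone. Col14a1 was -0.04 in the cells with Itm2a alone and 2.42 in those with both genes. Itm2a had 1.497 against 0.41 in the rest, values fixed in part by the rule, since Itm2a is a gene of the score. The remaining higher genes were Ppp1r14b (1.21 against 0.51), AC160336.1 (0.997 against 0.15) and the immunoglobulin gene Igkc (1.65 against 1.55). The gate had limited Igkc, with the other immunoglobulin genes, in members and rest alike. Igkc made up 145781 CPM of the Tom+ barcodes with up to 1000 genes and was at 546 CPM in the Tom+ members and 519 CPM in the Tom+ rest.

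The other 3 sets of 400 cells of the same gate, chosen the same way from preadipocyte or progenitor genes, shared few cells with the members. The set by Vtn, Cxcl14 and G0s2 shared 30 cells, 7.50% of each set. The set by Cd36, Meox2 and Aspn shared 23, 5.75% of each, and the set by Vdr, Thbd and Adamts9 shared 24, 6% of each. Any set of this size holds 5.71% of the gate, so none of these shares stood far from the gate's. Of the 38 members with Car3 or Cfd, 21.1% were in the first set and 26.3% in the second.

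Side by side, the set by Vtn, Cxcl14 and G0s2 had more Lpl and Plin2 than the members of both libraries and less Igf1 and Agt. Lpl was at 3161 CPM in its Tom+ and 2045 CPM in its Tom- cells, against 1222 and 1329 CPM in the members. Plin2 was at 497 and 505 CPM against 174 and 302 CPM. Car3, Adipoq, Plin1 and Cebpa were at 270, 17.6, 108 and 143 CPM in its Tom+ cells, above the members' 223, 14.2, 88.7 and 88.0 CPM. In its Tom- cells they were at 31.5, 1.93, 1.66 and 71.3 CPM, below the members' 262, 27.4, 15.7 and 78.1 CPM. Trf was at 1535 and 1560 CPM, above the 802 and 1194 CPM of the rest and below the members' 1848 and 2743 CPM. Cd36 was at 148 and 19.3 CPM against 165 and 45.5 CPM, and Pparg at 65.2 and 44.5 CPM against 37.9 and 52.9 CPM. Without those with Car3 or Cfd, Cd36 in the members was at 3.82 and 22.9 CPM, the latter mostly from 5 Tom- cells with Rgcc alone. The set held 8 of the members with Car3 or Cfd and was not trimmed in the same way. The trimmed levels are therefore not compared with it. Igf1 was at 486 and 750.3 CPM against 968 and 1415 CPM, and at 236 and 304 CPM in the set by Cd36, Meox2 and Aspn. In the set by Vdr, Thbd and Adamts9 Igf1 was at 809 CPM (742 to 879) in Tom+, above the 504 CPM of the rest, and at 643 CPM in Tom-. Agt was at 385 and 375 CPM in the first set and 127 and 217 CPM in the second and 168 and 191 CPM in the third, against 443 and 501 CPM in the members. In the second set's Tom- cells Cfd was at 116 CPM and Adipoq at 19.9 CPM, against 133 and 27.4 CPM in the Tom- members. Each set was chosen on these cells, so the values are a description.

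The libraries shared 2224 cell barcodes. Of these, 3 lay in the gate of both, 0 were members in both, and 12 members had a barcode that the other library also listed.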

How the data were processed

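Single-cell libraries were made by the authors from sorted gWAT cells and counted with Cell Ranger 3.0.2 on mm10, per the submitters' processing notes. The deposited files hold raw UMI counts per gene and cell barcode. The sums of all barcodes were 61119807 (Tom+) and 96872394 (Tom-) UMIs over 31054 genes, of which 99.6% had an identifier in GENCODE vM21. Members and gene lists were chosen with earlier results of these data known. UMIs were summed over the cells of each pool and given as CPM, with exact Poisson, binomial (Clopper-Pearson) or conditional 95% intervals. A count of 0 was set to 3 UMIs per pool in ratios. Genes were named by the rules stated beside them, and any list member could be named. To compare shares, UMIs of each cell were drawn at random down to 6959, a depth that 10% of the gate did not reach, which left out 21 Tom+ and 47 Tom- members. The lists counted were 33. Alternatives changed the number of members, the genes and weights of the score, the filters, the scaling and the fold. Members with Adipoq, other cell types' markers, Car3 or Cfd, or the 5 highest scores were left out as alternatives chosen after seeing the data. Intervals were checked on Poisson counts drawn from pooled rates, which leaves out the spread between cells and so does not test them against it. Python 3 with numpy and scipy was used.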

Additional observations from a re-analysis of the deposited data

Results flagged for a closer look

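In 7 of the 25 genes compared (those named between the sorts and the late preadipocyte markers) the log2 ratio of members over rest pointed one way in the Tom+ library and the other way in the Tom- library, with counting intervals that excluded 0 in each. Most of the 25 were named for the highest or lowest ratios between the sorts in the members. That choice favours opposite directions, so the count is a description of these genes. Over all tested genes, whatever their intervals, 27.2% were higher in the members of both libraries and 32.2% lower in both. The differences were not tested, since each sort gave 1 library. Fabp5 had 1.99 in Tom+ and -0.598 in Tom-, with 1 cell holding 85.7% of the Tom+ members' UMIs. Without that cell the Tom+ members were at 64.9 CPM against 109 CPM in the rest, lower as in Tom-. Cxcl13 had -0.635 and 2.09, with 3 cells holding 92.0% of the Tom- members' UMIs. Without those cells the Tom- members were at 31.7 CPM against 90.8 CPM in the rest. The rest was not trimmed in the same way, and 40 of its Tom- cells held 89.9% of its 4093 Cxcl13 UMIs. No direction was therefore read from the trimmed Cxcl13 level. Leaving out the highest members for Fabp5 and Cxcl13 was chosen after seeing the data. Plin2 had -0.41 and 0.507, and its thinned share of cells was lower than in the rest in Tom+ (41.6% against 53.7%) and higher in Tom- (55.1% against 47.5%). Cxcl12 had -0.444 and 0.371, Cxcl2 had -0.547 and 0.327, Ppp1r14b had 0.296 and -0.408, and AC160336.1 had 0.579 and -0.269. The mix of members with Rgcc and with Itm2a differed between the libraries, and its part in these differences was not tested.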

How the results depend on the processing

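The Tom+ share of the members was 18.75% without Itm2a in the score, 39.75% without Rgcc and 32.75% with each gene divided by its SD, and stayed within its counting interval under the other alternatives that changed the cells. The count of genes at least 2-fold higher and lower in the members (66 and 42) was 122 higher with 200 members, 39 and 24 with 800, 101 higher without Itm2a, 30 and 24 without Rgcc, 43 and 13 with the SD, 24 higher under 5% mitochondrial share, 38 higher without the deepest cells, 14 and 11 from 20 CPM, 410 and 98 with no filter, 174 and 123 at 1.5-fold, 35 higher without members with markers of other types and 31 higher without those with Car3 or Cfd. Between the sorts (451 and 189) it was 836 and 421 with 200 members, 245 and 78 with 800, 83 and 40 from 20 CPM, 1604 and 595 with no filter and 1405 and 663 at 1.5-fold. The median of the late preadipocyte markers in Tom+ (0.95) was 1.75 with 200 members, 0.57 with 800, 1.52 without Itm2a, 0.13 with cells weighted equally and 0.41 without members with Adipoq. It was reversed at -0.21 under 5% mitochondrial share, -0.53 without the deepest cells, -0.088 without members with markers of other types, -0.20 without the 5 highest members and -0.57 without those with Car3 or Cfd. In Tom- (0.65) it was 0.96 with 200 members, 0.46 with 800, 0.53 without Rgcc, 0.47 under 5% mitochondrial share, 0.44 with cells weighted equally, 0.51 without members with Adipoq, 0.51 without the 5 highest and 0.28 without those with Car3 or Cfd. The tdTomato ratio (4.94) was 5.65 without Itm2a, 3.51 without Rgcc, 4.37 with the SD and 4.46 from thinned cells.

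Other reversals followed the same alternatives. The Tom+ median of committed preadipocyte genes was -0.41 with 200 members, -0.072 without Rgcc, -0.091 under 5% mitochondrial share, -0.37 without the deepest cells, -0.10 without members with Adipoq, -0.072 without other types' markers, -0.16 without the 5 highest and -0.37 without Car3 or Cfd. The Tom+ median of mature adipocyte genes was -0.49 under 5% mitochondrial share and -0.0067 without the deepest cells, that of lipid genes -0.17 without the deepest cells and -0.27 without Car3 or Cfd, and the Tom+ over Tom- median of collagens -0.015 with 200 members. In Tom+, Cd36 was -0.16 without the deepest cells, -3.11 without other types' markers and -3.35 without Car3 or Cfd, Cebpa -0.27, -0.25 and -0.26 and G0s2 -0.67, -0.65 and -0.60 without the deepest cells, the 5 highest and Car3 or Cfd, and G0s2 -0.51 under 5% mitochondrial share. Srgn was -0.62 (Tom+) and -1.80 (Tom-) without Rgcc, -1.34 and -0.60 without other types' markers, and in Tom- -0.087 without the deepest cells, -0.11 with cells weighted equally and -0.32 without Car3 or Cfd. Lyz2 was 0.11 without Rgcc and 0.72 with the SD in Tom+ and 1.61 in Tom- with 800 members, when Mmp3 was 0.095 in Tom+. Between the sorts Cd36 was -2.90 without other types' markers and -2.59 without Car3 or Cfd, the latter resting on few cells, and Cxcl13 1.997 without Rgcc. The cause was not tested.

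No paired analysis was possible because each sort gave 1 library. Of the other values 1144 stayed within their counting interval, 439 moved beyond it and 37 are the reversals above. Leaving Cfd out of the score kept 399 of the 400 members, leaving Rgcc out 185. At a median of 5 UMIs of the 4 genes per member, membership near the limit is set by single UMIs.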
